A study of Mus musculus with 2 samples.

Results

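The motile cilium axoneme genes described here are the 70 of 32285 listed features whose symbol starts with Dnah, Dnai, Dnaaf, Cfap, Rsph, Tekt or Drc followed by a digit. The rule reads symbols only and no measured value, though it was chosen with earlier results of these data known. All 70 were found by identifier in GENCODE release M21 (build mm10), on 18 chromosomes. Of these, 69 are protein-coding and 1, Dnah2os, is an antisense transcript inside Dnah2. The genes were measured in 2 single-cell libraries of brain from C57BL/J mice at postnatal day 10, with no treatment, genotype or control group. The series names 6 mice and ties none to a library, so the libraries are not known to be separate animals, and a p-value here reflects only how far these libraries differ, which may be technical.

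A motile cilium is built around the axoneme, a ring of microtubule doublets around a central pair of microtubules. Dynein motors sit on the doublets as outer and inner arms, and their heavy chains, the Dnah genes, slide the doublets and bend the cilium. Radial spokes and the nexin-dynein regulatory complex pass signals between the central apparatus and the arms, tektins and other proteins line the doublets from inside, and cytoplasmic Dnaaf factors assemble the arms before they enter the cilium. In the brain, ependymal cells line the ventricles and carry tufts of motile cilia that move cerebrospinal fluid, whereas most neurons and astrocytes carry a single primary cilium without dynein arms.

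The libraries differed in depth and make-up. Library 1 held 12978 barcodes with 51452085 unique molecular identifiers (UMIs, each standing for 1 captured RNA molecule) and library 2 held 19508 barcodes with 45532691 UMIs. After quality limits and removal of doublets, 11992 and 14068 cells remained, and 90 barcode sequences occurred in both libraries. Cells were grouped by Leiden clustering without any cilium gene among the clustering genes. A cluster was called by a cell type and "-like" from its markers, with scoring limits that were set with the data in view. A name could be withheld for low UMI depth, for library make-up or for the markers among the leading genes. One cluster carried all 7 ependymal markers (Foxj1, Tmem212, Rarres2, Mia, Hdc, Pltp and Calml4), which summed to 7476 and 7395 counts per 1000000 UMIs (CPM) of the class's UMI sum. Its leading genes were Ccdc153, Tmem212, Meig1 and Dynlrb2. It held 390 cells in library 1 (3.25% of kept cells) and 52 in library 2 (0.370%), with a median of 4895 and 6251 UMIs per cell, and these are the ependymal-like cells below.

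Markers of some other cell types were present in the ependymal-like cells. The 6 erythroid markers, globin genes among them, summed to 0.455 CPM in library 1 and 6176 CPM in library 2. The 10 choroid plexus markers summed to 205 and 187 CPM, most of it Folr1 at 138 and 135 CPM. Of these markers 4 were detected in both libraries and 2 were at 0 in both, and Ttr, an abundant choroid plexus transcript, was at 6.83 and 0 CPM. This low Ttr level depends on the clustering. At Leiden resolution 2 the ependymal-like cluster held 409 and 56 cells with Ttr at 9105 and 1703 CPM, under stricter quality limits it held 323 and 46 cells with Ttr at 9918 and 1909 CPM, and for the 441 and 67 cells taken by markers Ttr was at 7950 and 2.8 CPM. The summed level of the 70 axoneme genes was 11754 and 10406 CPM, 11439 and 10078 CPM, and 10982 and 9929 CPM in those cells. The 10 astrocyte markers, all detected, summed to 831 and 1025 CPM, against 5897 and 4600 CPM in astrocyte-like cells. The 10 neural progenitor markers summed to 812 and 777 CPM, against 2492 and 2114 CPM in their own class, and the 10 neuroblast markers to 909 and 976 CPM, against 8617 and 8919 CPM. Their part in the results was not tested.

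Axoneme genes made up more than 1% of all RNA molecules of ependymal-like cells. Their summed level was 12270 CPM in library 1 (exact Poisson 95% interval 12124 to 12418) and 10661 CPM in library 2 (10309 to 11021), or 11465 ± 1138 (SD, n = 2). Further classes with high sums were astrocyte-like cells at 691 and 482 CPM, Cajal-Retzius cell-like cells at 507 and 612 CPM, fibroblast-like cells at 491 and 316 CPM and oligodendrocyte precursor-like cells at 412 and 407 CPM. The libraries gave opposite orders for astrocyte-like and Cajal-Retzius cell-like cells and for fibroblast-like and oligodendrocyte precursor-like cells, so these pairs are not ranked. Microglia-like cells had the lowest sum, 124 and 145 CPM, and overlapped with border macrophage-like cells at 174 and 140 CPM. The ependymal-like values lay far above every other class in each library. Intervals here and below cover counting error only.

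**Figure D1:**
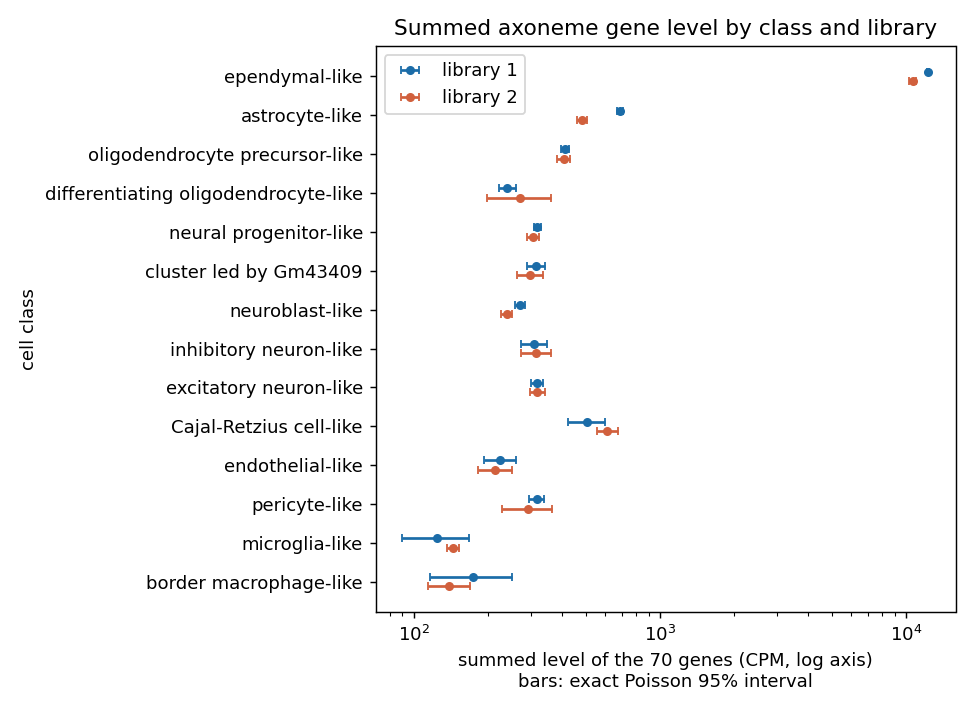
Summed level of the 70 axoneme genes (CPM of the class's UMI sum, log axis) in 14 cell classes, with 1 point per library and exact Poisson 95% intervals as bars. Ependymal-like cells sit at 12270 and 10661 CPM, apart from astrocyte-like cells at 691 and 482 CPM and all further classes drawn.

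A small population held much of the axoneme RNA. Ependymal-like cells had 26959 of 43630 axoneme gene UMIs in library 1, or 61.8% (exact Clopper-Pearson 95% interval 61.3 to 62.2%), while they had 4.69% of all UMIs. In library 2 they had 3473 of 14636, or 23.7% (23.04 to 24.43%), with 0.847% of all UMIs. The lower share in library 2 went with the smaller number of ependymal-like cells there.

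Single ependymal-like cells held UMIs of many axoneme genes at once. Each cell was thinned to 2000 UMIs so that depth did not decide the number detected, which left out 44 and 2 ependymal-like cells with fewer. All 346 and all 50 remaining cells had UMIs of at least 3 axoneme genes (exact 95% intervals from 98.9% and 92.9% up). The median cell had 18 of the 70 genes in library 1, with a range of 7 to 35, and 16 in library 2, with a range of 5 to 25. Without thinning the medians were 31 and 30 genes. Among microglia-like cells, which lack motile cilia, 0 of 72 thinned cells of library 1, which allows a share of up to 4.17% (3 counts of 72), and 2 of 1627 of library 2 (0.123%) reached 3 genes, at median depths of 3108 and 3670 UMIs before thinning. The unthinned shares with at least 3 genes were 100% of ependymal-like cells in both libraries against 1.05% and 2.31% of microglia-like cells.

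The summed level also varied from cell to cell. Summed axoneme gene UMIs ran from 5369 to 29472 CPM per cell in library 1 with a median of 12701, and from 3392 to 16284 CPM in library 2 with a median of 10952. No ependymal-like cell was without axoneme RNA.

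**Figure D2:**
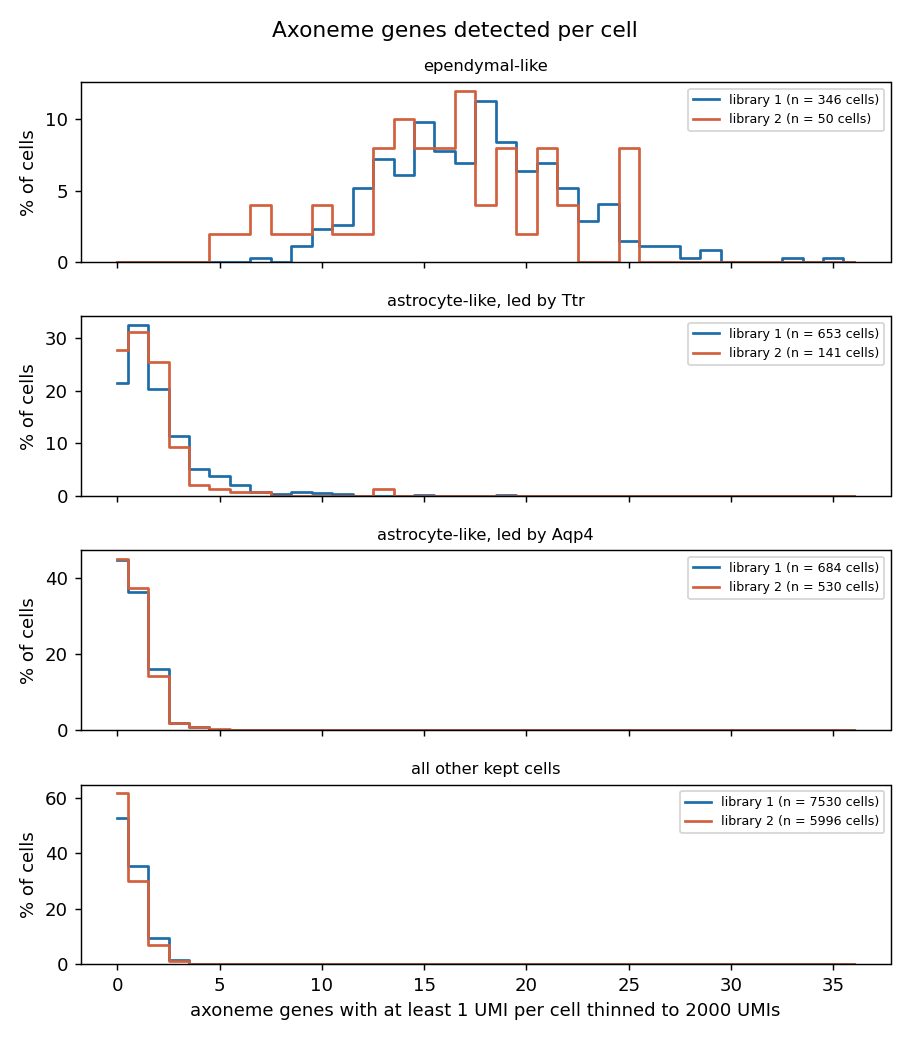
Number of axoneme genes with at least 1 UMI per cell after thinning each cell to 2000 UMIs (x axis) against the percent of cells (y axis), for ependymal-like cells, both astrocyte-like clusters and all other kept cells, with 1 line per library. Ependymal-like cells centre on 18 and 16 genes, whereas 3.77% and 1.87% of all cells outside that class reach 3 genes and the Ttr-led astrocyte-like cluster has a tail to 19.

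Nearly every axoneme gene that could be tested was higher in ependymal-like cells than in the mean of 12 other classes. UMIs were summed per class and library and tested with edgeR's quasi-likelihood F test over 13469 genes, with the library as a block. Of the 70 genes, 63 were called higher and 0 lower (a call needs an adjusted p under 0.05, a log2 difference of 1 or more in size and agreement of both libraries on the direction), 1 was not called and 6 had too few counts to be tested. Over all genes tested, 23.8% were called higher and 12.3% lower. For 41 of the 64 tested genes the count filter was passed only through the ependymal-like sums, so a difference was built in. Of the 23 that passed it without those sums, 22 were called higher, all but Cfap97. With the clustering genes and markers kept among the genes tested, the counts stayed at 63 and, against astrocyte-like cells, 62, where 24.1% and 19.7% of all genes were called higher. The fitted median log2 difference of the tested axoneme genes was 8.35, against -0.0045 over all genes, and rests in part on genes with almost no counts elsewhere.

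Against astrocyte-like cells alone, the closest class by summed level among those tested, 62 of the 70 genes were called higher and 0 lower, where 19.5% of all genes were called higher and 15.4% lower. Of the 23 genes that passed the filter without ependymal-like sums, 21 were called. Cfap97 and Dnah8 were not.

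**Figure D3:**
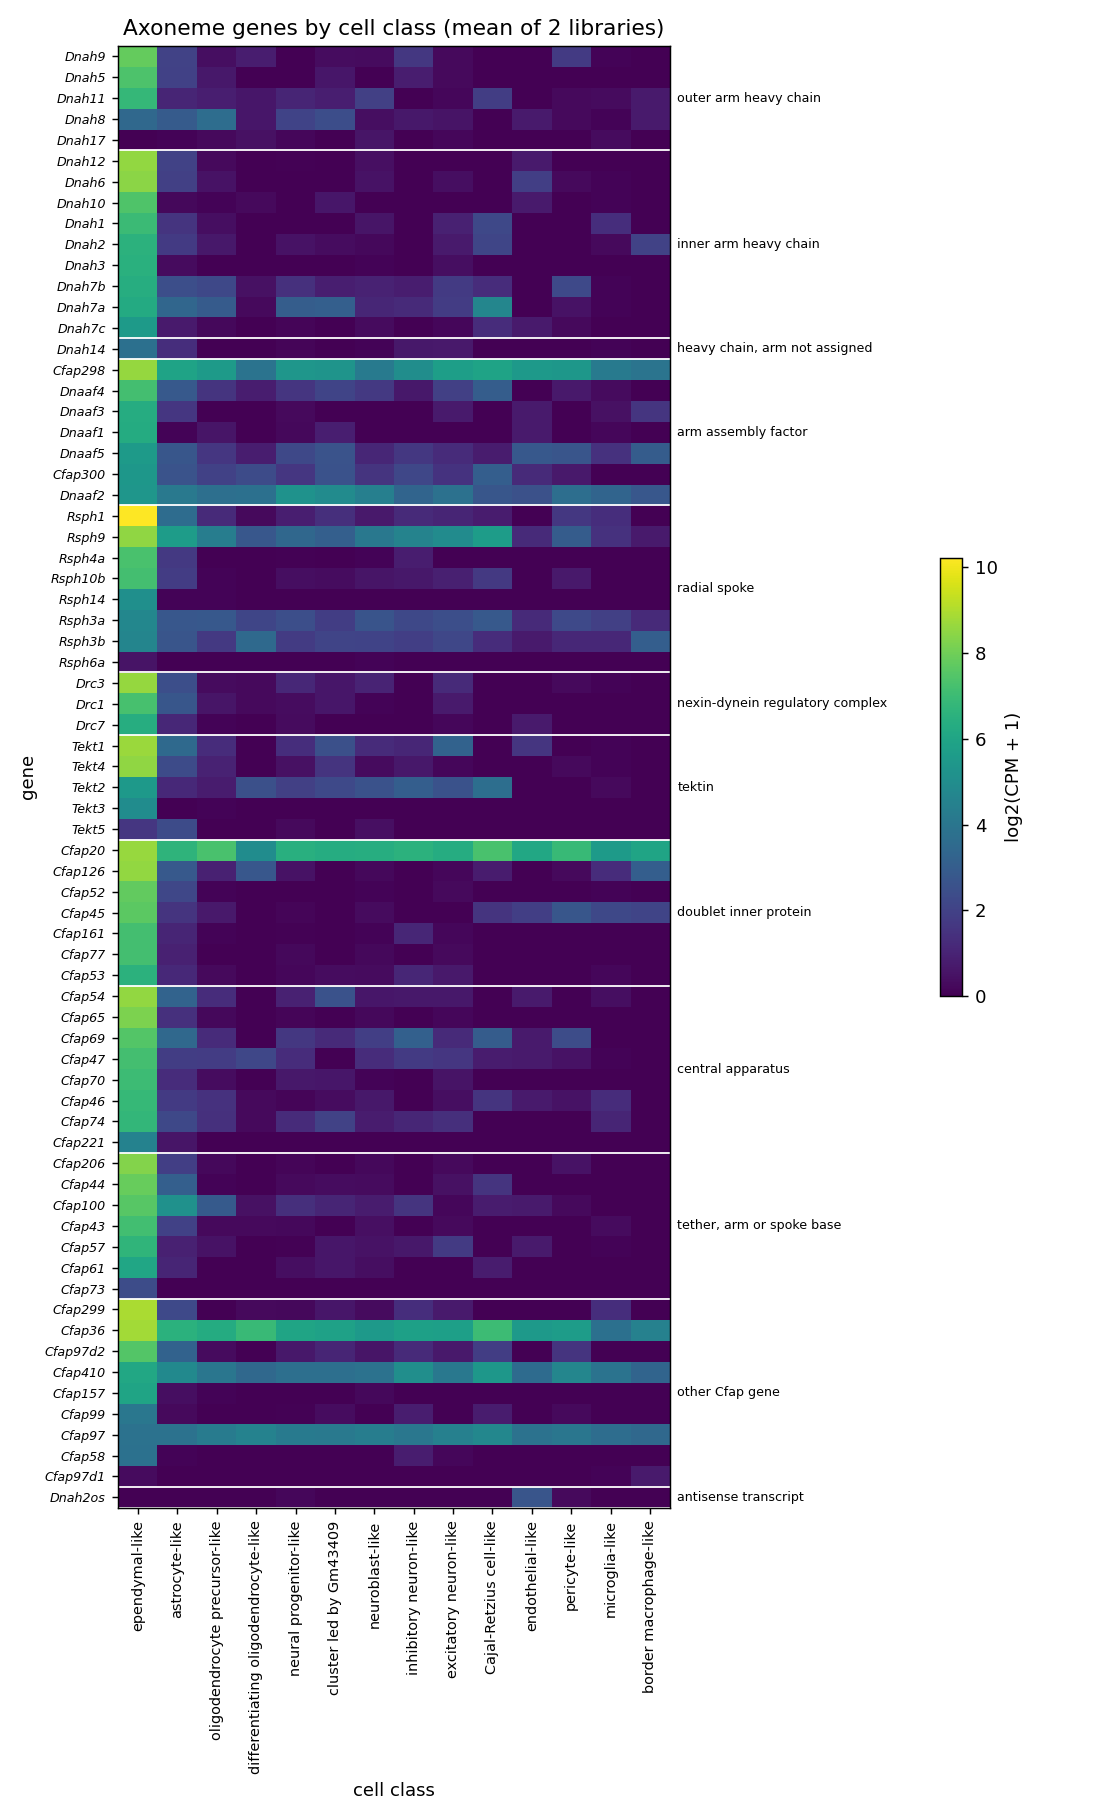
Mean level over both libraries, as log2(CPM + 1), of the 70 axoneme genes (rows, grouped by role) in 14 cell classes (columns). The ependymal-like column is bright for most rows, and a few rows, such as Cfap20, Cfap36 and Cfap298, stay bright across all classes.

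The dynein heavy chains, the motor subunits, were led by inner arm members. UMIs of the 3' kit are counted once per molecule and were not divided by gene length, and capture can still differ between genes, so the order given is one of UMI levels. Dnah12 (chromosome 14, 26693274 to 26891703, plus strand) had 411 and 356 CPM (904 and 116 UMIs) and Dnah6 had 369 and 328 CPM. Both were near 0 elsewhere, with means over the other classes of 0.562 and 0.260 CPM for Dnah12 and 0.904 and 0.301 CPM for Dnah6. All 9 inner arm heavy chains (Dnah1, Dnah2, Dnah3, Dnah6, Dnah7a, Dnah7b, Dnah7c, Dnah10 and Dnah12) were called higher than the mean of the other classes and than astrocyte-like cells, where 23.8% and 19.5% of all genes were. All but Dnah7a passed the count filter only through the ependymal-like sums, so a difference was built in. With DESeq2 the calls of Dnah3 (adjusted p = 0.154) and Dnah10 (0.113) against the mean were lost. Against astrocyte-like cells DESeq2 lost those of Dnah3 (adjusted p = 0.359), Dnah10 (0.287) and Dnah12 (0.222). The levels of the 9 chains outside ependymal-like cells had a median of 0.347% of the ependymal-like level.

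Among outer arm heavy chains, Dnah9, which marks the distal part of the cilium, had 244 and 200 CPM, Dnah5 had 161 and 172 CPM and Dnah11 had 132 and 92.1 CPM. These 3 form the respiratory and ependymal outer arms, and all were called higher, where 23.8% of all genes were. All 3 passed the count filter only through the ependymal-like sums. The outer arm chains known from sperm flagella were low or undetected. Dnah17 had 0 UMIs in both libraries, which allows up to 1.37 CPM in library 1 and 9.21 CPM in library 2. Dnah8 had only 13.7 and 6.1 CPM (30 and 2 UMIs) and was called higher than the mean of the other classes (fitted log2 difference 2.78, SE 0.45) but not than astrocyte-like cells (0.81, SE 0.42). Dnah14, whose arm is not assigned here, had 19.1 and 6.1 CPM.

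The closely related Dnah7a, Dnah7b and Dnah7c lie on chromosome 1, and the 3' ends of their transcripts share sequence. Of the 31-base words in the last 500 bases of Dnah7a, 62.6% also occur in Dnah7c transcripts and 40.6% in Dnah7b transcripts. Their separate levels, 69.2 and 79.8 CPM for Dnah7a, 101 and 64.5 CPM for Dnah7b and 56.4 and 36.8 CPM for Dnah7c, are therefore uncertain. The outer arm paralogs Dnah5 and Dnah8, and Dnah9, Dnah11 and Dnah17, shared 0% of such words.

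Arm assembly factors were the role group with the highest median level elsewhere as a percent of the ependymal-like level. All 7 (Dnaaf1, Dnaaf2, Dnaaf3, Dnaaf4, Dnaaf5, Cfap298 and Cfap300) were called higher, where 23.8% of all genes were. Dnaaf1 and Dnaaf3 passed the count filter only through the ependymal-like sums. The mean over the other classes had a median of 5.49% of the ependymal-like level in this group. Dnaaf4 had 147 and 138 CPM, Dnaaf3 had 83.7 and 76.7 CPM and Dnaaf1 had 79.7 and 76.7 CPM. Dnaaf2, a factor that folds dynein heavy chains, had 44.2 and 36.8 CPM against means of 15.6 and 15.3 CPM over the other classes, and it was called higher with a log2 difference of 1.27 (SE 0.20). Cfap298 (chromosome 16, 90925809 to 90935114, minus strand) was the highest of the group at 414 and 359 CPM, and also reached 37.8 CPM in the mean of the other classes in each library.

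Radial spokes, which relay signals from the central apparatus to the arms, made up 17.0% of the summed axoneme gene level, more than any other role. Most of the group's 2210 and 1682 CPM came from Rsph1, and its rank rests on that gene. Rsph1, a spoke head protein on chromosome 17 (mm10 31255019 to 31277383, minus strand), had the highest level of all 70 genes, 1369 CPM (exact Poisson 95% interval 1320 to 1418) and 1028 CPM (921 to 1145). The intervals do not overlap, so the libraries differed by more than counting error. At least 1 Rsph1 UMI was found in 94.9% and 98.1% of ependymal-like cells, against 1.05% and 0.0514% of microglia-like cells. The further head proteins Rsph9 (421 and 313 CPM), Rsph4a (148 and 160 CPM) and Rsph10b (170 and 117 CPM) were also called higher, where 23.8% of all genes were. Rsph4a and Rsph10b passed the count filter only through the ependymal-like sums, so a difference was built in. Rsph6a, the sperm counterpart of Rsph4a, had 2 UMIs in library 1 and 0 in library 2 and was not tested. Rsph3a and Rsph3b share 89.6% of the words at their 3' ends, so their levels of 30.5 and 21.5 CPM and of 35.96 and 12.3 CPM cannot be separated. Rsph14 had 79 and 10 UMIs in ependymal-like cells and 2 in the 12 other classes together. It also passed the filter only through the ependymal-like sums. Its call against the mean of the other classes was lost with DESeq2 (adjusted p = 0.217).

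The 3 genes of the nexin-dynein regulatory complex, which links neighbouring doublets, were all called higher, where 23.8% of all genes were. All 3 passed the count filter only through the ependymal-like sums, so a difference was built in. With DESeq2 the call of Drc7 against the mean of the other classes was lost (adjusted p = 0.149). Drc3 (chromosome 11, 60353329 to 60394341, plus strand) had 371 and 408 CPM, Drc1 had 159 and 144 CPM and Drc7 had 97.4 and 64.5 CPM. Drc3 had its higher level in library 2, unlike most axoneme genes. Elsewhere the 3 together had means of 2.14 and 1.37 CPM.

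Of 5 tektins, filament proteins inside the doublets, 4 were called higher, where 23.8% of all genes were. Tekt3 and Tekt4 passed the count filter only through the ependymal-like sums. Tekt1 (chromosome 11, 72344722 to 72362442, minus strand) had 436 and 381 CPM and Tekt4 had 366 and 368 CPM, so the libraries differed little for Tekt4. Tekt2 was lower at 48.7 and 43.0 CPM, and Tekt3 at 35.5 and 24.6 CPM. Tekt3 had the fewest UMIs elsewhere of the tested genes: 1 in the 12 other classes together, against 78 and 8 in ependymal-like cells. With 23 of 24 other sums at 0, its call against the mean of those classes was lost with DESeq2 (adjusted p = 0.219). Tekt5, best known from sperm, had 4.1 and 0 CPM in ependymal-like cells and 4.5 and 3.5 CPM in astrocyte-like cells (30 and 14 UMIs), and was not tested. No 31-base word at their 3' ends was shared between tektins.

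The other proteins of the doublet interior were all called higher (7 of 7), where 23.8% of all genes were. Cfap52, Cfap53, Cfap77 and Cfap161 passed the count filter only through the ependymal-like sums. With DESeq2 the call of Cfap52 against the mean of the other classes was lost (adjusted p = 0.113). Cfap20, which sits at the inner junction of each doublet, had 400 and 396 CPM. Cfap126 had 406 and 356 CPM, Cfap52 had 234 and 196 CPM, Cfap45 had 224 and 181 CPM, Cfap161 had 150 and 138 CPM and Cfap77 had 148 and 135 CPM. Cfap53 had 117 and 70.6 CPM. Except for Cfap20, each had a mean elsewhere under 1% of its ependymal-like level.

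All 8 central apparatus genes were called higher, where 23.8% of all genes were, and with DESeq2 the calls of Cfap65 (adjusted p = 0.0693) and Cfap221 (adjusted p = 0.26) were lost. All but Cfap54 and Cfap69 passed the count filter only through the ependymal-like sums, so a difference was built in. Cfap54 (391 and 365 CPM) and Cfap65 (315 and 276 CPM) led this group, followed by Cfap69 (203 and 153 CPM), Cfap47 (152 and 132 CPM) and Cfap70 (132 and 126 CPM). Cfap46 had 137 and 92.1 CPM, Cfap74 had 116 and 98.2 CPM, and Cfap221 was lowest at 26.4 and 18.4 CPM. The group's summed level was 1472 and 1262 CPM against 10.2 and 7.6 CPM in the mean of the other classes.

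Of 7 genes that tether the inner arms or sit at the arm or spoke base, 6 were called higher. Of these 6, all but Cfap100 passed the count filter only through the ependymal-like sums, so a difference was built in. Cfap73, with 12 and 1 UMIs, was not tested. Over all genes tested, 23.8% were called higher. Cfap206 had 312 and 335 CPM, Cfap44 had 270 and 187 CPM, Cfap100 had 198 and 181 CPM and Cfap43 had 153 and 129 CPM. Cfap73 and Cfap100 are partners in one complex in the green alga Chlamydomonas, yet Cfap73 had only 5.5 and 3.1 CPM. No Cfap73 UMI was seen in any of the 12 other classes.

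The remaining Cfap genes were the most mixed group: 7 of 9 were called higher, Cfap97 was not and Cfap97d1 was not tested. Of the 7, all but Cfap36, Cfap97d2 and Cfap410 passed the count filter only through the ependymal-like sums. Over all genes tested, 23.8% were called higher. Cfap299 (479 and 503 CPM) and Cfap36 (462 and 433 CPM) followed Rsph1 as the highest of all axoneme genes. Cfap97d2 had 181 CPM in both libraries and Cfap157 had 64.2 and 58.3 CPM. Cfap97 (chromosome 8, 46151771 to 46195590, plus strand) had 20.5 and 6.1 CPM (45 and 2 UMIs) in ependymal-like cells and means of 16.1 and 15 CPM elsewhere, with a log2 difference of -0.09 (SE 0.25, edgeR adjusted p = 0.817). The libraries placed Cfap97 on opposite sides of the other classes. Cfap97d1 had 1 UMI and the antisense transcript Dnah2os had 0.

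The profile over the genes was alike in both libraries. Across the 65 genes detected in both, log2 levels had a Pearson r of 0.982 and a Spearman rho of 0.981, given as a description, since genes are not independent replicates and share a library's depth. Library 1 had the higher level for 58 of the 70 genes, among them some with no UMI in library 2. Across the 65 genes the median ratio of library 2 to library 1 was 0.854. The 12 highest genes made up 48.8% of the summed level, and 38 of the 70 genes had a mean of at least 100 CPM. The globin RNA of library 2 given above moved with this offset, and its part was not tested.

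**Figure D4:**
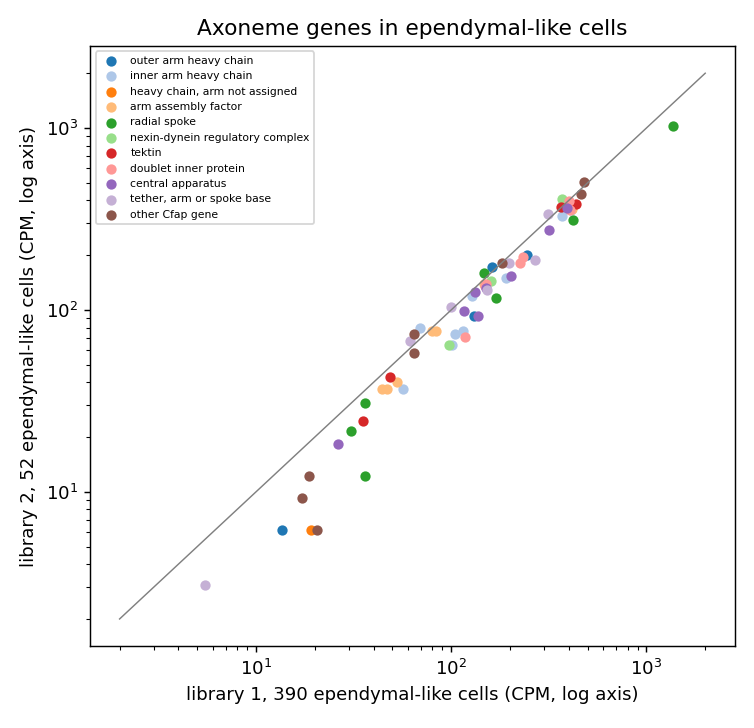
Level of each axoneme gene in ependymal-like cells of library 1 (x axis) and library 2 (y axis), in CPM on log axes, coloured by role, for the 65 genes detected in both. The grey line marks equal levels, and most of the points lie below it.

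Outside ependymal-like cells most axoneme genes were close to absent and a few were not. Of the 64 tested genes, 43 had a mean over the 12 other classes under 1% of their ependymal-like level, 10 had 1 to 5%, 6 had 5 to 20% and 5 had over 20%. The 5 were Cfap97 (117%), Dnaaf2 (38.1%), Dnah8 (31.2%), Cfap410 (24.3%) and Cfap20 (22.1%). For comparison Tmem212, an ependymal marker, had 0.0466%. Low percentages may hold free RNA as well as expression, and this was not tested.

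**Figure D5:**
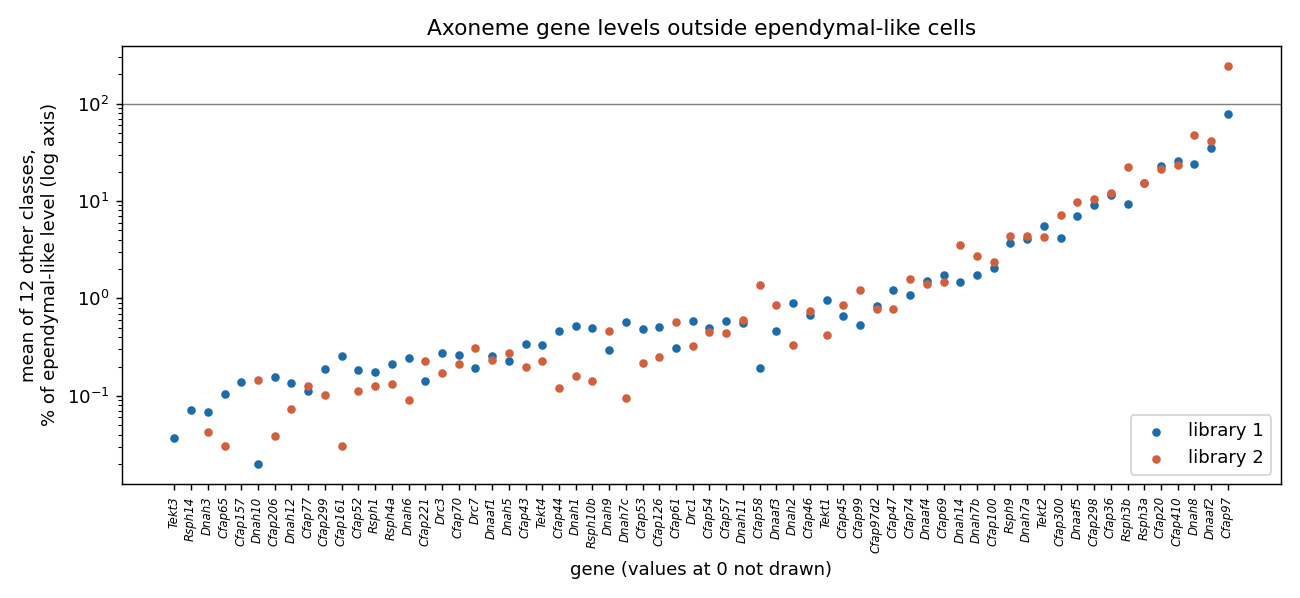
Mean level over the 12 other classes as a percent of the ependymal-like level (y axis, log scale) for the 64 tested axoneme genes in order (x axis), with 1 point per library. The curve stays under 1% for 43 genes and crosses 20% for 5, and Cfap97 falls on both sides of the line at 100%.

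Cfap20, Cfap36 and Cfap298 carried a larger part of the axoneme gene level in most other classes than in ependymal-like cells. Together they made up 10.7% of it in ependymal-like cells but 43.1% in astrocyte-like, 68.3% in oligodendrocyte precursor-like and 72.0% in endothelial-like cells, and 13% in the few neutrophil or monocyte-like cells. The means over the other classes were 91.1 and 84.5 CPM for Cfap20, 53.5 and 52.5 CPM for Cfap36 and 37.8 and 37.8 CPM for Cfap298. Without these 3 genes, the sum in microglia-like cells was 53.3 and 61.2 CPM and in neuroblast-like cells 118 and 104 CPM, against 10995 and 9473 CPM in ependymal-like cells. Cfap410, a protein of primary cilia as well, came next at means of 16.5 and 17.1 CPM, followed by Cfap97, Dnaaf2 (15.6 and 15.3 CPM) and Rsph9 (15.5 and 13.7 CPM).

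Of the 12 other classes tested, astrocyte-like cells as a whole class had the most axoneme genes called higher. In a fit without ependymal-like sums, 23 axoneme genes passed the count filter, and 12 of them were called higher in astrocyte-like cells than in the mean of 11 further classes, with 0 lower, where 15.5% of 12676 genes were called higher and 3.32% lower. This filter used the sums of the tested classes, so a gene could pass it through a single class, astrocyte-like cells included. How many did was not counted. Cfap100 had the largest fold, at 33.9 and 36.4 CPM in astrocyte-like cells. The next of the classes tested, oligodendrocyte precursor-like cells, had 4.83 and 7.97 CPM, and the values did not overlap. Rsph9 (63.9 and 34.4 CPM), Rsph1 (16.8 and 5.8 CPM), Cfap69 (14.1 and 6.0 CPM), Cfap54 (11.8 and 5.3 CPM), Cfap97d2 (10.9 and 5.8 CPM), Tekt1 (17.4 and 3.0 CPM) and Cfap126 (9.5 and 2.8 CPM) were also called. The others called were Cfap300, Dnaaf4, Dnah7a and Dnah8. Several of these levels came mainly from the Ttr-led cluster described next. In its Aqp4-led counterpart Rsph1 had 3.26 and 2.05 CPM, Cfap54 had 2 and 2.05 CPM, Tekt1 had 2 and 1.46 CPM and Cfap126 had 1.5 and 1.17 CPM. The Tekt1 level there lay below that of excitatory neuron-like cells, 9.31 and 7.08 CPM.

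The astrocyte-like cells came from clusters that differed in axoneme RNA. The cluster led by Ttr, a gene abundant in choroid plexus, held 704 and 160 cells and had 1131 and 950 CPM of axoneme genes. The cluster led by the astrocyte water channel Aqp4 held 700 and 555 cells and had 404 and 405 CPM. In both libraries 50 of the 70 genes were higher in the Ttr-led and 2 in the Aqp4-led cluster, given as values with no test. The 7 ependymal markers were also higher in the Ttr-led cluster, at 478 and 421 CPM against 64.1 and 34.5 CPM. Their sum at this level is not particular to that cluster, since some other classes had more. It was 651 and 648 CPM in endothelial-like, 513 and 593 CPM in pericyte-like and 1502 and 1476 CPM in fibroblast-like cells. After thinning, 25.7% and 15.6% of Ttr-led cells had UMIs of at least 3 axoneme genes, against 2.78% and 3.02% of Aqp4-led cells. UMIs of at least 8 axoneme genes occurred in 345 of 346 and 46 of 50 ependymal-like cells, and in 16 of 8867 and 2 of 6667 other kept cells, all of them in the Ttr-led cluster.

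The genes of the Ttr-led cluster did not keep the ratios of ependymal-like cells. Rsph1 stood at 2.74% and 2.76% of its ependymal-like level there, Cfap54 at 6.84% and 6.81%, Cfap69 at 15.4% and 17.4% and Cfap20 at 32.3% and 30.1%, while the marker Tmem212 was at 4.2 and 1.8 CPM against 1883 and 1845 CPM. Tekt1 differed between libraries, at 9.39% and 3.27%. Cfap100 was not part of the difference between clusters, with 37.5 and 33.8 CPM in Ttr-led and 31.6 and 36.9 CPM in Aqp4-led cells. Dnah8 went the other way, with 0 and 1.8 CPM in Ttr-led and 7.0 and 10.2 CPM in Aqp4-led cells.

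Other classes had single axoneme genes above the rest. In oligodendrocyte precursor-like cells 4 of the 23 genes were called higher and 0 lower (13.2% of all genes higher, 3.57% lower), led by Dnah8 at 12.3 and 10.8 CPM, a level like the 13.7 and 6.1 CPM of ependymal-like cells. In neural progenitor-like cells 3 genes were called higher and 0 lower (9.64% and 4.91% of all genes). There Dnaaf2 reached 38.3 and 33.0 CPM, which overlaps with its ependymal-like level of 44.2 and 36.8 CPM, and the unnamed cluster led by Gm43409 had 36.5 and 23.4 CPM. That cluster had 6 genes called higher and 0 lower (7.72% and 5.74% of all genes). Neuroblast-like cells, with Dnaaf2 at 20.6 and 20.5 CPM, had 2 called higher and 3 lower (10% and 9.29% of all genes).

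Neurons had low tektin levels. In excitatory neuron-like cells 3 of the 23 genes were called higher and 1 lower (13.4% and 8.32% of all genes): Tekt1 at 9.3 and 7.1 CPM, Tekt2 at 5.8 and 4.1 CPM and Rsph9 at 25.4 and 34.3 CPM were higher, and Dnaaf5 was lower. Tekt2 was called in inhibitory neuron-like cells too, at 11.7 and 3.06 CPM (10 and 2 UMIs), where 2 genes were called higher and 0 lower (12.2% and 9.59% of all genes). Cajal-Retzius cell-like cells, early-born cortical neurons that were too few in library 1 (37 cells) to be tested, had Dnah7a at 26.9 and 23.6 CPM and Rsph9 at 49.9 and 48.6 CPM. The next highest Dnah7a level outside ependymal-like cells was that of astrocyte-like cells, 12.4 and 6.53 CPM.

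Microglia-like cells had 1 gene called higher and 3 lower (17.6% and 9.92% of all genes). Cfap45 was higher at 2.96 and 4.26 CPM (1 and 35 UMIs), while Cfap36, Rsph9 and Dnah8 were lower. DESeq2 called 8 lower there, adding Dnah7a, Cfap69, Cfap100, Cfap300 and Tekt1. Cfap45 was also called in pericyte-like cells at 7.35 and 3.83 CPM (18 and 1 UMIs), with 2 genes higher and 0 lower (13.9% and 6.43% of all genes), of which DESeq2 kept Cfap45 and not Cfap69 (adjusted p = 0.0873). In endothelial-like cells 1 gene was called higher and 2 lower (14.6% and 10.6% of all genes), and the higher one, Cfap45, rests on 2 UMIs per library and was not called with DESeq2 (adjusted p = 0.0683). Border macrophage-like cells had 1 higher, Cfap126 on 2 UMIs per library, and 2 lower (14.2% and 10.5% of all genes), of which DESeq2 did not call Rsph9 (adjusted p = 0.0866). Dnah2os, with 0 UMIs in ependymal-like cells, had 3 and 5 UMIs in endothelial-like cells, or 4.0 and 6.9 CPM, and at most 1 UMI in any other class and library. Such counts are near the limit of detection.

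Promoters of axoneme genes often held GTTGCC, an arm of the X-box, the sequence bound by Rfx factors. RefSeq promoter sequences (build GRCm38.p6, 250 bases before to 50 after a transcript start) were at hand for 57 of the 70 genes, with 64 windows. GTTGCC was searched on both strands and occurred in 37.5% of these windows, against 12.5% of all 32851 windows. The full X-box, an inverted repeat of this arm with a short spacer, can overlap it. It occurred in 1 axoneme gene, Cfap298, and in 0.545% of all windows. The forkhead core GTAAACA, the kind of site read by Foxj1, occurred in 6.25% against 3.65% of windows. A match is a description of letters, not of binding.

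The windows printed here are 60 bases upstream of a RefSeq start that hold GTTGCC and touch no exon of GENCODE M21, and Cfap300, which has such a window too, is not printed. They belong to tektins, to Cfap20 and Cfap97d2 from the doublet and mixed groups, and to the Dnah7 paralogs. Lower-case bases run 5′ to 3′ on the gene's strand, and capitals mark GTTGCC or its reverse complement GGCAAC.
Tekt1 (chr11:72361883-72361942, minus strand): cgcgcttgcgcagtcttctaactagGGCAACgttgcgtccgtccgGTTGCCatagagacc
Tekt2 (chr4:126325689-126325748, minus strand): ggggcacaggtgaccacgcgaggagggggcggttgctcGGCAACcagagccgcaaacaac
Cfap20 (chr8:95434931-95434990, minus strand): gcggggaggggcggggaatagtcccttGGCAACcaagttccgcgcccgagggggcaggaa
Cfap97d2 (chr8:13705829-13705888, plus strand): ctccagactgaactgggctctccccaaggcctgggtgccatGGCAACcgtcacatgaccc
Dnah7a (chr1:53706952-53707011, minus strand): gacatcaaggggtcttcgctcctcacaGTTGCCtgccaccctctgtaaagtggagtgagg
Dnah7b (chr1:46066663-46066722, plus strand): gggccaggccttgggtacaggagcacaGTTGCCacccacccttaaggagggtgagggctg
Dnah7c (chr1:46425272-46425331, plus strand): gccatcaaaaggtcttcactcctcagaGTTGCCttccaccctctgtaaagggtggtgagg
In Tekt1 the motif nearest the start ends 10 bases before it, in Cfap97d2 14, in Tekt2 17 and in Cfap20 89. In Dnah7b, Dnah7a and Dnah7c it lies farther away, at 158, 195 and 214 bases. Tekt1, Cfap20 and Cfap97d2 had ependymal-like means of 408, 398 and 181 CPM, while Tekt2 had 45.8 CPM with a window of the same kind, and Cfap20, unlike Tekt1, was also present in every other class.

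Most cilium genes outside the symbol rule were also called higher than the mean of the other classes, against the same background of 23.8% higher and 12.3% lower. These genes could pass the count filter through the ependymal-like sums alone, which builds in a difference. How many did was not counted. Other arm subunits had 16 of 19 genes called higher, with Dynlrb2, a light chain, at 1997 and 1882 CPM. The general light chain Dynll1 had 2690 and 2557 CPM but a log2 difference of only 1.39. Other assembly factors had 13 of 14 called, further genes of the nexin link 11 of 11, of the central apparatus and spokes 17 of 17 and of the doublet interior 17 of 18, and 0 genes of these lists were lower. Intraflagellar transport genes, which also build primary cilia, had 27 of 30 called higher. Ift20, for example, had 568 and 608 CPM against means of 77.1 and 71.6 CPM elsewhere.

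Of 18 regulators of multiciliation, 11 were called higher, 1 lower, 3 not called and 3 not tested. The same limit of the count filter holds for them. Those called higher included Rfx2 and Rfx3, factors that bind the X-box, the centriole amplification gene Deup1, Mcidas and Myb (253 and 249 CPM). Tfdp1 was lower, with a log2 difference of -1.18. Foxj1, a marker used to name the cluster and so left out of the test, had 732 and 669 CPM.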

How the data were processed

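Files hold raw UMI counts per gene and barcode, as the authors deposited them, which the submitters' processing notes tie to Cell Ranger 6.1.2 and mm10. Which annotation release and cell calling were used is not known here. The genes, roles and lists were chosen with earlier results of these data known. Cells needed 500 genes and no more than 10% mitochondrial UMIs. Doublets were removed with Scrublet in scanpy 1.11.5: 626 by its own threshold in library 1, and the 897 highest scores in library 2, up to the expected 6%, because the threshold marked 0 there. Leiden clustering took 2000 variable genes, 30 principal components, 15 neighbours and resolution 1, without cilium genes.

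Of 29 clusters, 2 with few UMIs stayed unnamed and entered no fit, and 1 led by Gm43409 kept that name. The values of 1 further unnamed class, which stayed in the fits, are not reported here. The 13 classes holding 40 or more cells per library entered edgeR 4.0.16 (TMM, filterByExpr, two-sided quasi-likelihood F test, Benjamini-Hochberg over all genes tested, 12 residual degrees of freedom). Genes used for clustering or naming were left out. The fit gave all genes 1 common spread, so its p-values are extremely small and few are printed. DESeq2 1.42.0 was an alternative. The fit was tested on simulated data.

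Named genes were the 12 highest in ependymal-like cells, the 6 highest elsewhere, uncalled genes of 20 CPM or more, fixed paralog groups, up to 12 called elsewhere and the 2 highest of each other list. Further genes fill the role groups and were named after their values were seen. Of the 70 genes, 35 overlap a gene on the other strand and 6 a gene on the same strand. How reads in overlaps were counted was not stated, so these counts, and those of Dnah2 and Dnah2os, are uncertain.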

Additional observations from a re-analysis of the deposited data

Results flagged for a closer look

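Axoneme RNA was also present in barcodes that the comparisons did not use. Of 986 barcodes left out in library 1, 616 had at least 2000 UMIs, and 39 of these had UMIs of at least 8 axoneme genes after thinning, of which 35 had been called doublets. Of 5440 left out in library 2, 755 had that depth and 2 reached 8 genes, of which 0 had been called doublets. The summed axoneme gene level in the left-out barcodes was 1048 and 259 CPM.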

How the results depend on the processing

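With the library as a block or with no replicate block, 63 and 62 genes were called higher in ependymal-like cells than in the mean of the other classes and than in astrocyte-like cells. DESeq2 gave 53 and 47. The 10 lost against the mean (Cfap52, Cfap58, Cfap65, Cfap157, Cfap221, Dnah3, Dnah10, Drc7, Rsph14 and Tekt3) had adjusted p of 0.0693 to 0.324 by DESeq2, each with 17 to 23 of 24 other sums at 0. DESeq2 size factors moved the median of all genes to 0.30 on the log2 scale and left 63 and 62. With 1 library left out, values are folds with no test. The genes lower than the mean of the other classes then ranged from 0 to 1, those lower in astrocyte-like cells from 0 to 1 and those higher there from 8 to 13. Summed over the 11 further classes, genes higher ranged from 12 without library 2 to 27 without library 1 (29 with both), and genes lower from 77 to 79 (11 with both). The share of ependymal-like cells with UMIs of at least 3 axoneme genes, 100% in the main setting, was 98.1% at Leiden resolution 2, 98.1% with stricter limits of 1000 genes and 5% mitochondrial UMIs, 96.3% with cells taken by markers and 98.1% after thinning to 1000 UMIs. An X-box or forkhead motif occurred in 7.81% of promoter windows and GTTGCC alone in 37.5%. The 52 ependymal-like cells of library 2 limit precision: 3 counts there are 9.21 CPM.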
